A study of Mus musculus with 6 samples.

Results

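Sebaceous gland lipid genes are described here as 10 genes of sebum synthesis and its control, namely Mc5r, Scd1, Scd3, Elovl3, Fa2h, Far2, Awat1, Awat2, Dgat2l6 and Soat1. They were chosen by name, as the probes whose gene name in the scanner files is one of the 10. That gave 12 probes, 3 for Scd3 and 1 for each other gene, among 39429 non-control probes. The 39389 usable probes among these name 31682 genes and transcripts. All 12 were well above background on all 6 arrays, so all 10 genes entered the test of 23675 genes. The arrays are one-colour Agilent arrays of total RNA from ear skin, 1 per mouse. The 3 knockout (KO) mice, numbered 1, 2 and 7, lacked NC16A, and the 3 wild-type (WT) mice, numbered 1, 2 and 3, had it, per the labels. NC16A is a segment of BP180 (collagen XVII, from Col17a1), a transmembrane collagen that anchors basal keratinocytes. Age and sex were stated as matched, while strain, age in weeks and how much of the segment was deleted are not given here. The labels name total skin RNA and no cell sorting, so a lower signal from fewer sebaceous cells and one from less RNA per cell cannot be told apart.

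Each value is a probe's log2 signal after subtraction of the 75th percentile of that array, and each difference is KO minus WT on that scale with the standard error (SE) of the limma fit across all genes. Signals of different probes share no scale, so levels are compared between arrays for 1 probe and not between genes. The KO arrays were dimmer before scaling, with a median signal of 368 to 404, against 445 to 573 on the WT arrays. Slide 1 held KO 1 and all WT arrays, and slide 2 held KO 2 and KO 7. The difference of KO 1 from the WT arrays of its own slide is therefore given as the slide 1 value. Col17a1 differed by -0.13 ± 0.14 (adjusted p = 0.58), and whether its probe lies in the deleted segment is not known, so it checks no label.

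Sebum is made by sebocytes, which fill with lipid droplets and burst into the hair canal. Mouse sebum is rich in wax esters, sterol esters and triacylglycerols of long and often unsaturated or branched fatty acids. Stearoyl-CoA desaturases (Scd) add the double bond, elongases (Elovl) lengthen the chain and fatty acyl-CoA reductases (Far) make the fatty alcohol. Acyltransferases of the DGAT2 family (Awat1, Awat2 and Dgat2l6) join acyl chains to alcohols or glycerides, and sterol O-acyltransferase 1 (Soat1) makes cholesterol esters. The melanocortin 5 receptor (Mc5r) acts on sebaceous and other exocrine glands, and mice without it have less lipid on the coat. Mice without Scd1 have small sebaceous glands, and mice without Elovl3 have sparse hair and altered sebum.

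The 3 DGAT2-family genes are neighbours on chromosome X, where their probes span 175.6 kb of mm9. The Awat2 probe lies at chrX:97597565-97597624 on the minus strand, and those of Dgat2l6 and Awat1 at chrX:97741165-97741224 and chrX:97773128-97773187 on the plus strand. Exons and untranslated regions under the probes were not annotated here. Their upstream sequences are shown because Awat1 and Dgat2l6 had positive differences and their neighbour Awat2 a negative one. They are the 250 bases before each RefSeq start, read 5′ to 3′ on the strand of the gene (GRCm38.p6), and Awat2 has 2 starts. RefSeq entries were matched by symbol for 6 of the 10 genes. The capitals mark CCAAT, the NF-Y box, on either strand.
Awat1 (chrX:100571997-100572246, plus strand): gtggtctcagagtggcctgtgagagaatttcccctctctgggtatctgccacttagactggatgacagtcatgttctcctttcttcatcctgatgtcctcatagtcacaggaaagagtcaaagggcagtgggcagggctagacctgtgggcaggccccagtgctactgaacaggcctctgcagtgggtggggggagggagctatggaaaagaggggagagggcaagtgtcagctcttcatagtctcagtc
Dgat2l6 (chrX:100524588-100524837, plus strand): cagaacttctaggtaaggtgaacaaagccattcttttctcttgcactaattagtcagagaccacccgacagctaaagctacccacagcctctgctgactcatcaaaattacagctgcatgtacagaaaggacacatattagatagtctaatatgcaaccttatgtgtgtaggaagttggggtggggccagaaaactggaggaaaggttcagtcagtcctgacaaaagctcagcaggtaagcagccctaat
Awat2, one start (chrX:100412588-100412837, minus strand): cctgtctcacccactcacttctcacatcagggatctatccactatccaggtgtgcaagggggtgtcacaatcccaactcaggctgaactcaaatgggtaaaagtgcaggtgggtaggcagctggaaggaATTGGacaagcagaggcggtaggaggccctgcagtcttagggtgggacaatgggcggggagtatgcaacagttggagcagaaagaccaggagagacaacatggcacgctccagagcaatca
Awat2, other start (chrX:100442718-100442967, minus strand): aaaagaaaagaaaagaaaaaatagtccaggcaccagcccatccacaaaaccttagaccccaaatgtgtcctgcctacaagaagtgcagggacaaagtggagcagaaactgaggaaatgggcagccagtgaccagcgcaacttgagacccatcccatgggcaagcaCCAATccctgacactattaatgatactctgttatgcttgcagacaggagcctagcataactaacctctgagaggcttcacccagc
CCAAT was found once in each Awat2 window and in neither of the other windows shown, and 33.8% of 32851 such windows of all genes hold it. Among the windows not shown, that of Soat1 (difference 0.49) held 1 CCAAT. Those of Scd3 (-0.07) and Far2 (-0.14) held 0, and the directions of both genes reversed in some alternative settings. No gene with a window passed the test, and a link between the motif and the direction of a difference was not tested. The sterol response element TCACNCCAC (in 1.05% of all windows), the TATA box TATAAA (12.4%) and the nuclear receptor motif AGGTCA (14.0%) were searched on both strands as well. None of these 3 was in the 4 windows shown. A match is a string of letters and says nothing of binding.

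Elovl3 was the 1 gene of the 10 that passed the test, and it was 2.95-fold higher in KO ear skin. The 10 genes did not move as a block. Awat1 and Dgat2l6 had differences of 1.28 and 0.98, Awat2 one of -1.49, and the differences of the other 6 genes lay between -0.40 and 0.49. Scd3 enters here at -0.07, by its probe with the highest mean, while its other probes gave -0.98 and -0.93. In limma (adjusted p under 0.05), the members that passed were 1 of 10 upward and 0 downward, against 1.98% and 0.389% of all genes and 2.37% for both directions. Differences were positive for 5 of 10, against 55.1% of all genes. At an unadjusted p under 0.05 there were 5 of 10, against 26.6% of all genes. The KO and WT arrays did not overlap for 5 of 10, with KO above WT for Elovl3 and Fa2h and KO below WT for Awat2, Scd1 and Mc5r, against 35.4% of all genes. The median difference of the 10 genes was 0.17, against 0.05 over all genes, and within slide 1 it was -0.03. With slide as a fixed block, 0 of 10 passed in limma, against 168 of 23675 genes. At an unadjusted p under 0.05 there were 2 of 10 in that fit, against 1893 of 23675 genes.

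**Figure D1:**
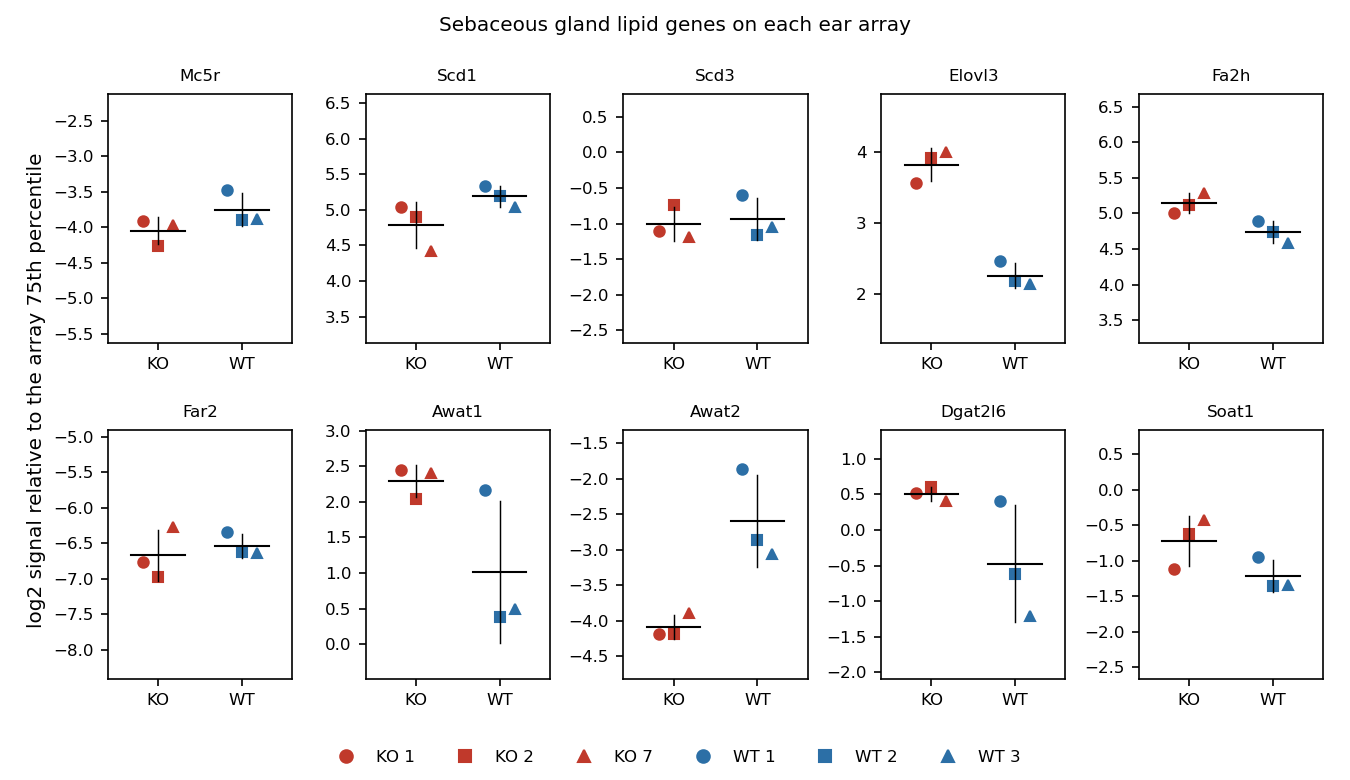
Scaled log2 signal (0 is the 75th percentile of the array) for each of the 10 genes, with KO arrays in red left of WT arrays in blue; a symbol marks each mouse, the bar is the mean and the line 1 SD (n = 3 each), and all panels span the same number of log2 units. Elovl3 lies between 3.56 and 4.01 on the KO arrays, above all WT arrays, and WT 1 stands apart for Awat1, Awat2 and Dgat2l6. Scd3 is drawn from its probe with the highest mean.

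Mc5r, the receptor, did not pass. Its signal was -3.92, -4.26 and -3.96 in KO 1, 2 and 7, against -3.48, -3.89 and -3.88 in WT 1, 2 and 3. All KO arrays were below all WT arrays, but the gap between KO 1 and the lowest WT array was smaller than the range within either group. The difference was -0.30 ± 0.17 (95% confidence interval -0.71 to 0.12, adjusted p = 0.30). The slide 1 difference was -0.16.

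Scd1, the main desaturase of skin and the gene lost in the asebia mouse, was read by a probe on chromosome 19 (mm9, 44469387 to 44469446, minus strand). Its signal was 5.03, 4.90 and 4.43 in KO 1, 2 and 7, against 5.34, 5.19 and 5.03 in WT 1, 2 and 3. KO 7 was the lowest array, and KO 1 and WT 3 were equal to the second decimal. The difference was -0.40 ± 0.19 (95% confidence interval -0.86 to 0.06, adjusted p = 0.23), and -0.15 within slide 1. Adipocytes also express Scd1, and all 12 adipocyte markers had negative differences, with a median of -0.86 (-0.38 within slide 1) and 0 that passed in limma (5 at an unadjusted p under 0.05). The adipokine genes Adipoq and Lep differed by -1.31 ± 0.38 and -1.50 ± 0.44 (adjusted p = 0.11 each), and by -0.64 and -0.62 within slide 1. The summed signal of these markers was 70.2 to 115 times the array's 75th percentile in KO and 83.1 to 190 times in WT. The ranges overlapped, since KO 1 at 115 lay above WT 1 at 83.1. All 12 were above background on every array, and their part in the Scd1 difference was not tested. Scd2 and Scd4, chosen after their values were seen as the other genes of the family, differed by -0.32 ± 0.15 and 0.41 ± 0.18 (adjusted p = 0.22 and 0.21), and by -0.48 and 0.27 within slide 1.

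The 3 Scd3 probes disagreed. Scd3 is a desaturase of the sebaceous gland that lies in a cluster of similar genes with Scd1, so a probe of it may read a related gene. The first 30 bases of each 60-base probe, 5′ to 3′ on the plus strand of chromosome 19 of mm9, are shown to tell the probes apart.
A_51_P446045, positions 44316703 to 44316762: ttcagggtaggtgtctcaagccaaatccaa
A_55_P2052759, positions 44318249 to 44318308: ataaagtcaaccataggtcaagaggcagag
A_55_P2099594, positions 44289995 to 44290054: aagacatccgtcctgaaatgaaagaagata
The last of these, A_55_P2099594, also lists the RefSeq accession that the Scd1 probe carries, and it had the highest mean and so stands for Scd3 in the counts above. Its signal was -1.10, -0.74 and -1.19 in KO 1, 2 and 7, against -0.60, -1.17 and -1.04 in WT 1, 2 and 3. The groups overlapped and the difference was -0.07 ± 0.20 (95% confidence interval -0.56 to 0.42, adjusted p = 0.84). Within slide 1 it was -0.16.

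The other Scd3 probes were lower in KO by about 1 log2 unit, without passing. Probe A_55_P2052759 gave -2.24, -1.43 and -1.53 in KO 1, 2 and 7, against -0.66, -0.90 and -0.85 in WT 1, 2 and 3. All its KO arrays lay below all WT arrays, and its difference was -0.93 ± 0.23 (adjusted p = 0.089 with each probe tested alone), with -1.43 within slide 1. Probe A_51_P446045 gave -2.21, -1.25 and -2.64 in KO 1, 2 and 7, against -0.44, -1.56 and -1.14 in WT 1, 2 and 3. KO 2 lay inside the WT range, and the difference was -0.98 ± 0.42 (adjusted p = 0.19), with -1.16 within slide 1.

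**Figure D2:**
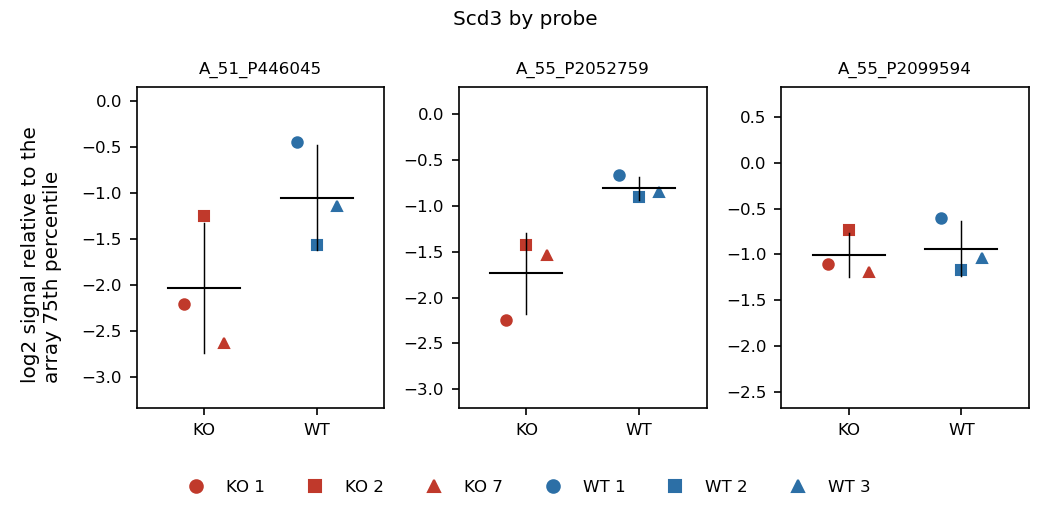
Scaled log2 signal (0 is the 75th percentile of the array) for the 3 Scd3 probes, with KO arrays in red left of WT arrays in blue, the mean as a bar and 1 SD as a line (n = 3 each), all panels to the same span. The groups separate only for A_55_P2052759, while A_55_P2099594, which also lists the Scd1 accession, has a difference of -0.07.

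Elovl3, the elongase that makes very long saturated and monounsaturated acyl chains in sebaceous gland, hair follicle and brown fat, was higher in every KO mouse. Its probe lies on chromosome 19 (mm9, 46209762 to 46209821, plus strand). Its signal was 3.56, 3.91 and 4.01 in KO 1, 2 and 7, against 2.47, 2.18 and 2.14 in WT 1, 2 and 3. The lowest KO array stood above the highest WT array by more than either group's range, with means of 3.83 ± 0.24 in KO and 2.26 ± 0.18 in WT (SD, n = 3 each). The difference was 1.56 ± 0.17 (95% confidence interval 1.15 to 1.98, adjusted p = 0.0085). Within slide 1 it was 1.30, and with slide as a fixed block it did not pass (adjusted p = 0.099). Elovl3 passed in 5 of the 6 fits that left out 1 mouse, and without WT 2 it did not (1.52, adjusted p = 0.053).

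Hair shaft and inner root sheath markers were higher in KO, as was Elovl3, which hair follicles also express. All 11 of these markers rose, with a median difference of 3.89 and 4.18 within slide 1. Krt82, a hair cuticle keratin gene, and Krt73, an inner root sheath keratin gene, were 9.23-fold and 8.61-fold higher in KO (adjusted p = 0.0019 each). Krt35, a hair shaft keratin gene, was 8.57-fold higher (adjusted p = 0.0019), and Padi3, which modifies hair proteins, 19.8-fold higher (adjusted p = 0.0032). The summed signal of the list was 76.1 to 144 times the array's 75th percentile in KO and 6.01 to 12.0 times in WT, and all 11 were above background on every array. This list was drawn up with earlier results of these data known. Within groups the order differed, since the mean of the hair list was lowest in KO 7 (1.86) and Elovl3 was highest there. The part of hair follicle RNA in the Elovl3 difference was not tested.

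Fa2h, which hydroxylates fatty acids at the second carbon for sphingolipids and sebum, was slightly higher in KO without passing. Its probe lies on chromosome 8 (mm9, 113869096 to 113869155, minus strand). Its signal was 5.01, 5.12 and 5.29 in KO 1, 2 and 7, against 4.90, 4.73 and 4.58 in WT 1, 2 and 3. No KO array overlapped a WT array, and the gap between KO 1 and WT 1 was smaller than the range within either group. The difference was 0.40 ± 0.15 (95% confidence interval 0.05 to 0.75, adjusted p = 0.15), and 0.27 within slide 1.

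Far2, which reduces fatty acyl-CoA to the fatty alcohols of wax esters, was dim. Its probe lies on chromosome 6 (mm9, 148130437 to 148130496, plus strand). It gave -6.77, -6.97 and -6.28 in KO 1, 2 and 7, against -6.34, -6.63 and -6.64 in WT 1, 2 and 3. The lowest signal well above background was -7.88 to -7.05 on the KO arrays and -8.32 to -7.57 on the WT arrays, so Far2 lay within about 1 log2 unit of it on some arrays. The groups overlapped, and the difference was -0.14 ± 0.21 (95% confidence interval -0.64 to 0.36, adjusted p = 0.69). Within slide 1 it was -0.23. Its direction reversed with another background correction (0.11).

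Awat1, an acyl-CoA wax alcohol acyltransferase, was more even among KO mice than among WT mice. Its signal was 2.44, 2.04 and 2.40 in KO 1, 2 and 7, against 2.16, 0.38 and 0.50 in WT 1, 2 and 3. WT 1 lay inside the KO range, and WT 2 and WT 3 lay below all other arrays. The means were 2.30 ± 0.22 in KO and 1.01 ± 0.998 in WT (SD, n = 3 each), and the difference was 1.28 ± 0.47 (95% confidence interval 0.16 to 2.41, adjusted p = 0.16). Within slide 1 it was 1.43. Without WT 1 the difference was 1.86 ± 0.18 and passed (adjusted p = 0.017). Awat1 passed in only 1 of the 6 fits that left out 1 mouse, and its highest adjusted p among them was 0.34.

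Dgat2l6, a DGAT2-family member close to the wax synthases, had the same pattern. It gave 0.52, 0.60 and 0.40 in KO 1, 2 and 7, against 0.41, -0.62 and -1.21 in WT 1, 2 and 3. WT 1 was within the KO range here too, and WT 2 and WT 3 were lower than all KO arrays. The difference was 0.98 ± 0.39 (95% confidence interval 0.06 to 1.90, adjusted p = 0.17), and 0.99 within slide 1. Without WT 1 it was 1.42 ± 0.22 and passed (adjusted p = 0.049). This was the only 1 of the 6 fits leaving out 1 mouse in which Dgat2l6 passed, and the highest adjusted p among them was 0.34.

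Awat2, the other wax alcohol acyltransferase, went the other way, at 2.82-fold lower in KO without passing. Its signal was -4.19, -4.19 and -3.89 in KO 1, 2 and 7, against -1.86, -2.86 and -3.06 in WT 1, 2 and 3. All KO arrays lay below all WT arrays, and WT 1 was the highest array. The difference was -1.49 ± 0.32 (95% confidence interval -2.26 to -0.73, adjusted p = 0.066), and -1.59 within slide 1. Without WT 1 it was smaller, at -1.13 ± 0.17, and it passed (adjusted p = 0.0497). Awat2 passed in only 1 of the 6 fits that left out 1 mouse, with a highest adjusted p of 0.17 among them. It also passed with an intensity trend in the variance model (adjusted p = 0.048).

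The neighbours were also compared by ratios within each array, where the scaling cancels. The log2 ratio of Awat1 to Awat2 was 6.63, 6.23 and 6.30 in KO 1, 2 and 7, against 4.02, 3.24 and 3.56 in WT 1, 2 and 3. The groups lay far apart, WT 1 was still the highest WT array, and the ratio was 6.86-fold higher in KO (2.78 on the log2 scale). The ratio of Dgat2l6 to Awat2 was 4.71, 4.79 and 4.30 in KO 1, 2 and 7, against 2.27, 2.25 and 1.86 in WT 1, 2 and 3, a difference of 2.48. The log2 ratio of Awat1 to Dgat2l6 differed by 0.30, and its groups overlapped. The log2 ratio of Elovl3 to Scd1 differed by 1.96, with no overlap. These 4 pairs were chosen after the values were seen. In exact two-sided permutation tests the 3 pairs without overlap each had p = 0.1 (adjusted p = 0.13 over the 4 pairs), and Awat1 to Dgat2l6 had p = 0.5. A p of 0.1 is the smallest that 3 arrays against 3 allow, and any pair without overlap has it. For pairs chosen after their values were seen, these tests therefore add no support.

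**Figure D3:**
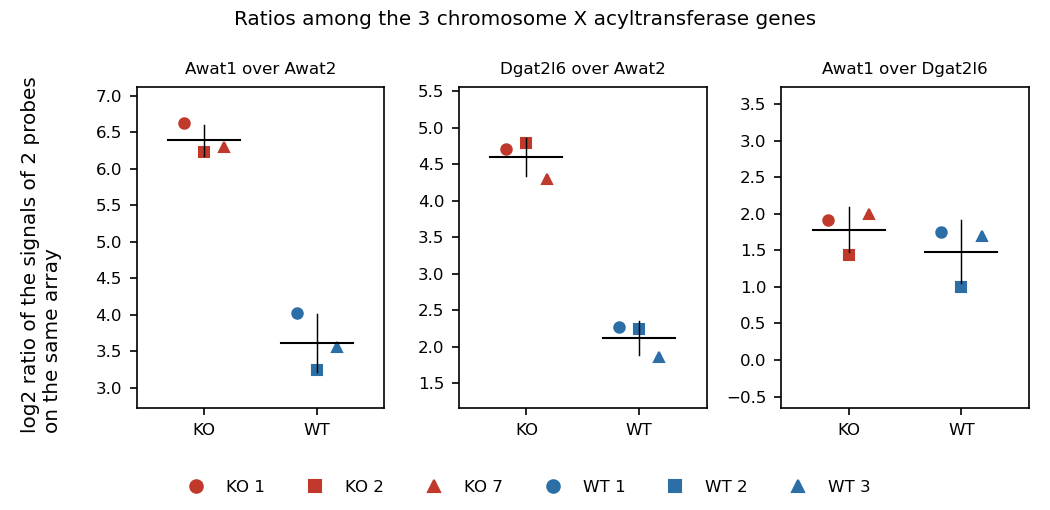
Log2 ratio of the signals of 2 probes on the same array for the 3 acyltransferase genes of chromosome X, with KO arrays in red left of WT arrays in blue, the mean as a bar and 1 SD as a line (n = 3 each), all panels to the same span. The ratio of Awat1 to Awat2 lies between 6.23 and 6.63 in KO and between 3.24 and 4.02 in WT, while Awat1 to Dgat2l6 overlaps.

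Soat1, which esterifies cholesterol in sebocytes, adrenal cells and macrophages, did not pass. Its probe lies on chromosome 1 (mm9, 158358766 to 158358825, minus strand). Its signal was -1.12, -0.62 and -0.43 in KO 1, 2 and 7, against -0.95, -1.36 and -1.34 in WT 1, 2 and 3. WT 1 lay inside the KO range. The difference was 0.49 ± 0.22 (95% confidence interval -0.03 to 1.02, adjusted p = 0.21), and 0.10 within slide 1. Macrophage markers, by contrast, had negative differences in 8 of 8 genes, with a median of -0.37 (-0.41 within slide 1) and 0 that passed in limma (3 at an unadjusted p under 0.05). Cd68 and Lyz2 differed by -1.05 ± 0.29 and -1.41 ± 0.45 (adjusted p = 0.10 and 0.13), and by -0.87 and -0.79 within slide 1. The summed signal of the 8 macrophage markers was 19.3 to 30.4 times the array's 75th percentile in KO and 24.5 to 28.1 times in WT, with all 8 above background on every array, and the part of macrophage RNA in the Soat1 difference was not tested.

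WT 1 was the highest WT array for all 10 genes, while it was the highest WT array for 34.4% of all genes tested. It exceeded the mean of WT 2 and WT 3 by 1.73 for Awat1, 1.32 for Dgat2l6 and 1.10 for Awat2, and by 0.23 to 0.51 for the other 7 genes. Among the 13 sebocyte and duct markers it was the highest WT array for 11, and among the 12 adipocyte markers for 0. Without WT 1, 4 of the 10 genes passed, against 1.50% of all genes, and 8 of 10 did not overlap, against 45.1% of all genes. Of the genes that passed, Elovl3, Awat1 and Dgat2l6 rose and Awat2 fell. WT 1 was singled out by the values of these same genes, and fewer WT mice remained, so these counts add no support. When any other mouse was left out, 0 or 1 of the 10 genes passed. No other array was the highest of its group for more than 5 of the 10 genes.

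**Figure D4:**
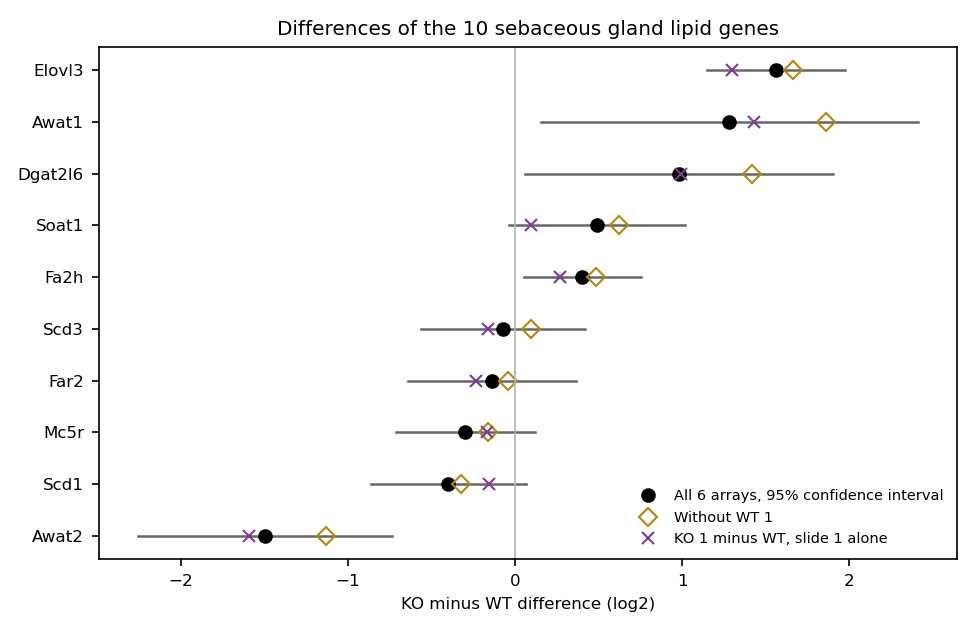
KO minus WT difference on the log2 scale for each of the 10 genes: filled circles and lines for all 6 arrays with the 95% confidence interval, open diamonds without WT 1, and crosses for KO 1 against the WT arrays of slide 1. Elovl3 stays above 1 and Awat2 below -1 in all 3, and Awat1 and Dgat2l6 are further from 0 without WT 1. For Scd3 the probe with the highest mean is drawn.

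Sebocyte and sebaceous duct markers outside the 10 genes were present. Of 13 genes, 12 were above background on all 6 arrays, and the exception was the mucin gene Muc1. In limma 0 of 13 passed (7 at an unadjusted p under 0.05), and 8 had negative and 5 positive differences, with a median of -0.27 (-0.25 within slide 1). KO arrays lay wholly below WT arrays for 6 of 13, against 14.0% of all genes, and wholly above for 1, against 21.4%. The summed signal of the 13 markers, scaled as for the adipocyte markers, was 151 to 166 in KO and 131 to 162 in WT. Their mean log2 signal was 0.54 to 0.73 in KO and 0.70 to 1.19 in WT. Both measures overlapped between groups, and they leaned in opposite directions. Hsd3b6, a steroid dehydrogenase gene, gave -4.18, -4.18 and -4.89 in KO 1, 2 and 7, against -2.42, -3.19 and -3.50 in WT 1, 2 and 3. Its groups did not overlap, and its difference was -1.38 ± 0.33 (adjusted p = 0.080), with -1.14 within slide 1. The acyl-CoA synthetase gene Acsbg1 differed by -0.55 ± 0.13 (adjusted p = 0.075), with -0.45 within slide 1. Chosen after their values were seen, Pparg, the nuclear receptor that drives sebocyte differentiation, differed by -0.42 ± 0.16 (adjusted p = 0.17), and Krt79, a keratin of the sebaceous duct, by 0.44 ± 0.14 (adjusted p = 0.12). Within slide 1 these were -0.38 for Pparg and 0.26 for Krt79.

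Genes of fatty acid synthesis, elongation and desaturation had negative differences more often than positive ones. Of 22 listed, 21 were tested and Elovl2 was too dim. In limma 0 of 21 passed (4 at an unadjusted p under 0.05), 13 differences were negative, against 44.9% of all genes, and the median was -0.18 (-0.16 within slide 1). KO arrays lay wholly below WT arrays for 6 of 21, against 14.0% of all genes. Elovl6, which extends palmitate to stearate, gave 3.60, 4.04 and 4.14 in KO 1, 2 and 7, against 4.88, 4.61 and 4.40 in WT 1, 2 and 3. Its difference of -0.71 ± 0.20 (adjusted p = 0.11, and -1.03 within slide 1) had the sign opposite to that of Elovl3. The desaturase gene Fads1 differed by -0.40 ± 0.14 (adjusted p = 0.14), with -0.47 within slide 1.

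Genes of wax, ether lipid, glyceride and sterol ester synthesis other than the 10 split evenly. In limma 0 of 13 passed (4 at an unadjusted p under 0.05), with 7 positive and 6 negative differences and a median of 0.02, which was -0.08 within slide 1. Both named genes encode enzymes that acylate lysophosphatidic acid. Agpat2 differed by -1.16 ± 0.27 (adjusted p = 0.077) and Agpat1 by 0.61 ± 0.21 (adjusted p = 0.14), and neither overlapped between groups. Within slide 1 the differences were -0.80 for Agpat2 and 0.32 for Agpat1.

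Lipid droplet and lipolysis genes had a median of -0.52, but -0.07 within slide 1. In limma 0 of 11 passed (4 at an unadjusted p under 0.05), and 8 differences were negative, against 44.9% of all genes. KO arrays lay wholly above WT arrays for 3 of 11, against 21.4% of all genes, and wholly below for 0. The summed signal, scaled as for the adipocyte markers, was higher in KO, at 189 to 198 against 146 to 179 in WT. The brightest probes weigh most in that sum. The mean log2 signal overlapped, at 2.06 to 2.49 in KO and 2.21 to 2.83 in WT. Mgll, which splits monoacylglycerols, differed by 0.56 ± 0.13 (adjusted p = 0.075), and its other 3 probes had positive differences as well. Its slide 1 value was 0.47. Fabp5, the epidermal fatty acid binding protein gene, differed by 0.63 ± 0.15 (adjusted p = 0.077), with 0.48 within slide 1. Of this list, Plin1, Cidec and Lipe are also on the adipocyte list, whose summed signals are given with Scd1, and the part of fat cells in this median was not tested.

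Cholesterol synthesis genes had mostly positive differences. Of 20 genes 18 had one, against 55.1% of all genes, with a median of 0.30 (0.19 within slide 1), and KO arrays lay wholly above WT arrays for 9, against 21.4% of all genes. In limma 0 of 20 passed (8 at an unadjusted p under 0.05). Ebp, a sterol isomerase gene, gave 4.23, 4.66 and 4.79 in KO 1, 2 and 7, against 3.77, 3.80 and 3.77 in WT 1, 2 and 3. The WT arrays were nearly equal and all KO arrays were higher, with a difference of 0.78 ± 0.17 (adjusted p = 0.071) and 0.45 within slide 1. Pmvk, a kinase gene of the mevalonate pathway, differed by 0.59 ± 0.13 (adjusted p = 0.075), with 0.41 within slide 1. Basal epidermis markers had positive differences in 5 of 7, with a median of 0.26 (0.15 within slide 1) and 0 that passed in limma (2 at an unadjusted p under 0.05). Their summed signal was 346 to 379 times the array's 75th percentile in KO and 271 to 318 times in WT, with all 7 above background on every array. Krt5 and Krt14 differed by 0.54 ± 0.15 and 0.50 ± 0.15 (adjusted p = 0.10 and 0.11), and by 0.34 and 0.39 within slide 1, while the other Krt5 probe gave -0.84. Suprabasal markers were mixed, with 4 of 7 positive, a median of 0.17 (0.08 within slide 1) and 0 that passed in limma (2 at an unadjusted p under 0.05). Krt1 and Krt10 differed by 1.16 ± 0.29 and 0.39 ± 0.16 (adjusted p = 0.087 and 0.19), and by 0.71 and 0.13 within slide 1. The 3 negative ones, named after their values were seen, were Krt77 at -0.86, Dsg1a at -0.64 and Dsc1 at -0.12. The suprabasal sum, in which the brightest probes weigh most, was 300 to 381 times in KO and 234 to 284 times in WT, but the mean log2 signal overlapped, at 4.08 to 4.53 in KO and 4.14 to 4.40 in WT. All 7 were above background on every array. The part of either layer in the cholesterol gene differences was not tested.

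Receptors and transcription regulators of sebum lipids showed no common direction. Of 13 listed, 12 were tested and Mrap2 was too dim. In limma 0 of 12 passed (1 at an unadjusted p under 0.05), with 7 positive and 5 negative differences and a median of 0.07, which was -0.05 within slide 1. The nuclear receptor gene Ppard differed by 0.52 ± 0.22 (adjusted p = 0.19), with 0.22 within slide 1. Mrap, whose product is an accessory protein of melanocortin receptors, differed by -1.05 ± 0.51 (adjusted p = 0.23), with -0.57 within slide 1.

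**Figure D5:**
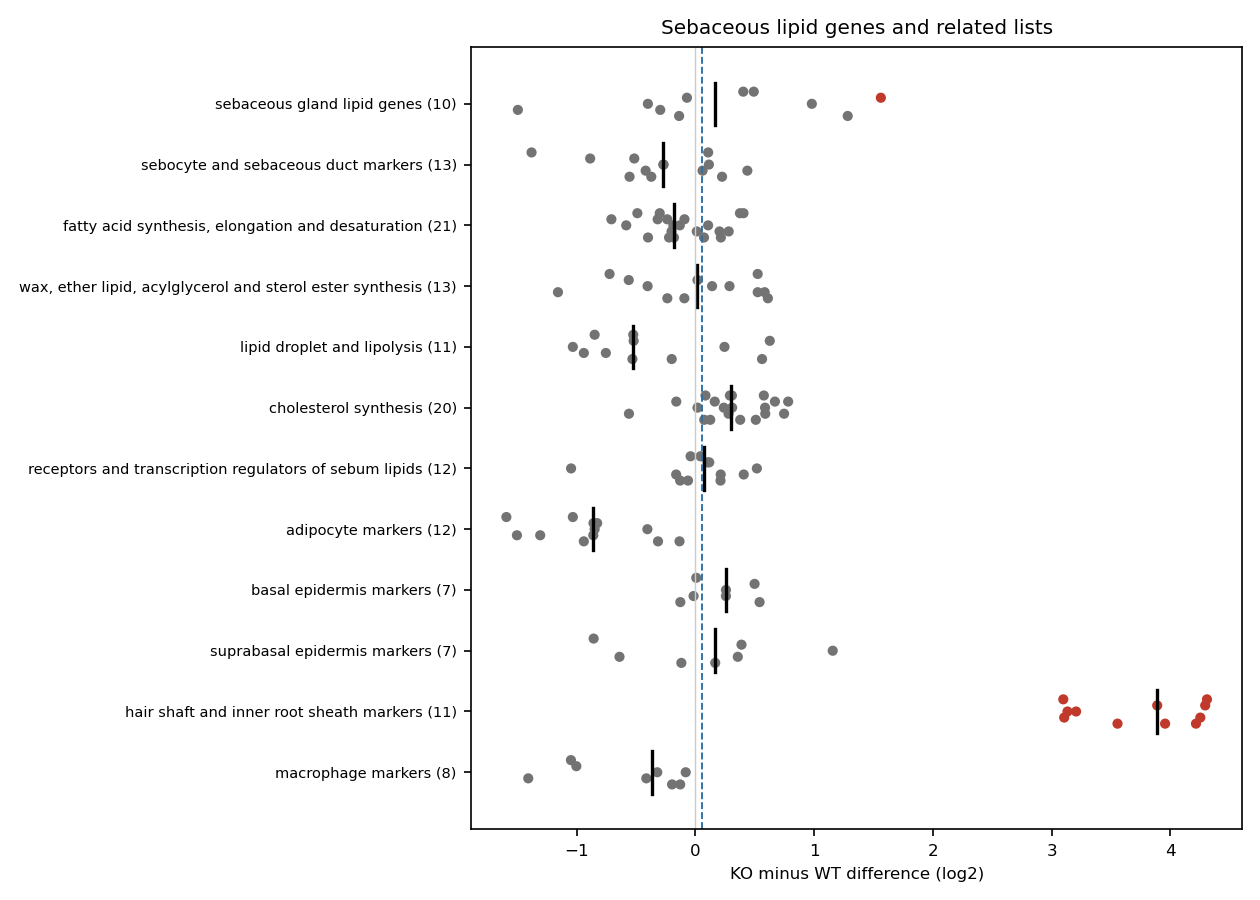
KO minus WT difference on the log2 scale for each gene of the 10 sebaceous gland lipid genes and 11 related lists, with the number tested in brackets; the black bar is the list's median, the blue dashed line the median over all genes (0.05), the grey line 0, and red marks genes that passed. The red points are Elovl3 and all 11 hair shaft and inner root sheath markers, and the adipocyte and macrophage markers all lie below 0.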

How the data were processed

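Ear skin RNA of 6 mice was hybridised to 6 arrays. The deposited scanner files give the processed signal of each spot as an intensity, made with Agilent Feature Extraction 10.7.3.1 and protocol GE1_107_Sep09 on array design 026655, per the file headers. Spatial and multiplicative detrending were on, low values were replaced by surrogates, and no scaling of arrays to each other is named, per the file headers. The value table also deposited holds an identical intensity for all 43340 features it lists on each array (within a relative tolerance of 1e-05). No spot was saturated, and 72.6% to 78.2% of spots per array were well above background. The number of arrays limits the precision.

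Outlier spots (170 to 249 per array) were left out, spots of a probe averaged, and log2 values taken relative to the array's 75th percentile over probes. Of 39389 usable probes, those well above background on at least 3 of 6 arrays were kept, and the probe with the highest mean stood for each of 23675 genes. Names came from RefSeq (GRCm38.p6), with 9249 probes keeping the scanner name. Groups were compared with limma 3.58.1 under R 4.3.3. Tests were two-sided, p-values were adjusted by Benjamini-Hochberg over the whole table, and the threshold was 0.05. The test was tried on simulated data with 100 changed genes. It recovered 39% of them at a log2 change of 1 and 69% at a log2 change of 2, with 5 false calls each time. A gene that did not pass may therefore still differ. Other steps used Python 3.11.15, pandas 2.3.3 and matplotlib 3.10.9.

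The 10 genes, the related lists and the tests were chosen with earlier results of these data known. Named are the 10 genes, Col17a1, up to 4 passing genes of each other list by smallest p (2 genes by p if fewer passed), and the 5 genes most like the mean of the 10. Other settings tried were a normexp correction (offset 50), quantile or median scaling, the series matrix, other filters, other probe summaries, an intensity trend, replicate number or slide as a block, slide 1 alone, and each mouse left out.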

Additional observations from a re-analysis of the deposited data

How the results depend on the processing

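Elovl3 kept its direction under every alternative run. It did not pass with slide as a fixed block, with replicate number as a block (1.41, adjusted p = 0.15) or without WT 2. The other genes kept their direction in every alternative, except Scd3, which reversed with normexp (0.020), without KO 7 (0.019) and without WT 1 (0.10), and Far2, which reversed with normexp (0.11) and without KO 2 (0.013). Leaving out 1 mouse gave -0.21 to 0.10 for Scd3 and -0.33 to 0.013 for Far2. Over all genes, 468 were higher and 92 lower. Those counts were 874 and 144 with normexp, 269 and 27 with no filter, 158 and 10 with slide as a fixed block, and 183 to 717 and 19 to 254 when 1 mouse was left out. With the array median 149 were lower and 389 higher. This scaling moved the median difference of all genes to -0.08, against 0.05. Of the 10 genes, 1 was higher and 0 lower. With replicate number as a block 0 genes were higher and 0 lower in limma, members included (4516 genes and 2 members at an unadjusted p under 0.05). With slide as a fixed block 0 members were higher. An intensity trend gave 1 member lower. Leaving out 1 mouse gave 0 to 3 higher and 0 to 1 lower. The members' median difference moved by less than the spread of 0.23 between KO arrays in all alternatives. The cause of these changes was not tested. The labels give no pairing: KO 7 and WT 3 have no partner, and the deviations of same-numbered mice correlated at 0.08 and 0.05 over all genes. A direction within about 1 log2 unit of background, as for Far2, is limited by signal.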

Other observations

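The genes most like the sebaceous gland lipid genes were taken as those whose log2 signal over the 6 arrays had the highest Pearson r with the mean profile of the 10. That profile, each gene centred on its own mean, was 0.06, 0.09 and 0.19 in KO 1, 2 and 7, against 0.32, -0.29 and -0.38 in WT 1, 2 and 3. The 5 genes were Hnrnpa3, an RNA-binding protein gene (r = 0.991), the elongase gene Elovl7 (r = 0.991), the serine protease gene Tmprss11e (r = 0.990), Sptlc2, a subunit gene of serine palmitoyltransferase (r = 0.986), and Hars2, a mitochondrial tRNA synthetase gene (r = 0.985). Their differences were 0.09, 0.38, 0.54, 0.15 and 0.11 in that order. These values describe 6 arrays that share 2 slides, and 117 of 23665 genes had an r of at least 0.9.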
